A study of Homo sapiens with 6 samples.

Results

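The globin genes were examined in K562 cells through the introns spliced out of their transcripts. The members were HBZ, HBA2 and HBA1 of the alpha-like cluster on chromosome 16 and HBE1, HBG2 and HBG1 of the beta-like cluster on chromosome 11. They were chosen by position. Every splice junction whose first and last intron base lay inside the window of 1 of these 6 genes, on the gene's strand, was taken. This gave 65 of the 780566 junctions listed in the series, of which 15 were annotated and 50 were not. Among the unannotated junctions, 6 had at least 20 reads over all libraries.

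The data came from poly(A)-selected RNA of K562, a human chronic myeloid leukaemia line with erythroid features. The control group was 3 libraries of cells whose U2AF1 carried a wild-type knock-in, the other group was 3 libraries of cells with U2AF1 S34F, and no treatment or time was labelled for either group. The U2AF1 protein helps the splicing machinery to find 3′ splice sites by contacting their terminal AG, and in S34F a serine of this protein is exchanged for phenylalanine. The labels do not say whether the libraries of a group came from separate cultures or clones, so each p-value below measures only the spread between these samples, which may be technical.

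Hemoglobin is a tetramer of a pair of alpha-like and a pair of beta-like chains. Human development uses zeta and epsilon chains (HBZ, HBE1) in the embryo, gamma chains (HBG1, HBG2) with alpha chains (HBA1, HBA2) in the fetus, and alpha chains with adult beta-like chains after birth. Each globin gene has 3 exons and 2 introns. K562 cells are known for making embryonic and fetal hemoglobins, which makes them a common model for these genes.

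The libraries held 19663622 to 42335747 junction reads, counting uniquely mapped and multi-mapped reads. Globin junctions took between 0.9496% and 2.35% of them, and 12.0% to 24.4% of all multi-mapped junction reads. In these percentages a multi-mapped read counts at each place where it is listed, so reads shared by 2 globin copies count at both. Multi-mapped reads were 6.57% to 7.14% of junction reads in the wild-type libraries and 7.22% to 8.08% in the S34F libraries. With the globin junctions and those of the zeta pseudogene HBZP1 left out, the ranges were 5.78% to 5.88% and 6.05% to 6.23%, so the groups stood apart in this measure without the globins too, and its part in the results below was not tested.

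Near-identical gene copies share reads. A multi-mapped read is listed at each place it fits, so HBG1 and HBG2 were summed as gamma globin and HBA1 and HBA2 as alpha globin, taking the unique reads of both copies plus the mean of their multi-mapped counts. RPM is the junction reads per 1000000 of the library after TMM normalisation, which corrects library totals for composition. A level of a member gene below is the mean RPM over its 2 introns. Reads were counted per splice junction, so these levels were not divided by gene length. Comparison between member genes is only rough. The HBZ level counts in full the reads shared with HBZP1, and the 2 introns of a gene differ in reads. For all other genes and pseudogenes, RPM is the mean over all annotated junctions of the gene, rarely used ones included. Those values are not on the same footing as the levels of the members. Defining erythroid genes were detected in every library, among them GATA1 (14.1 to 20.9 RPM) and TFRC (34.9 to 48.1).

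Gamma globin, the fetal beta-like chain, was the most abundant in every library, and the embryonic genes had the largest ratios between genotypes. Mean levels in wild-type libraries ran from gamma globin (2855 ± 1211.5, SD, n = 3) through alpha globin (343 ± 62.5) and HBZ (289 ± 96.5) to HBE1 (30.7 ± 11.6). In S34F libraries gamma globin stood at 4396 ± 1963, HBZ at 756 ± 74.1, alpha globin at 453.5 ± 142 and HBE1 at 242 ± 289. Alpha globin and HBZ overlapped in the wild-type libraries, and in the S34F libraries every HBZ level lay above every alpha globin level. This order has the reads shared by HBZ and HBZP1 counted in full at HBZ. HBE1 lay below alpha globin in every library but S34F replicate 1.

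**Figure D1:**
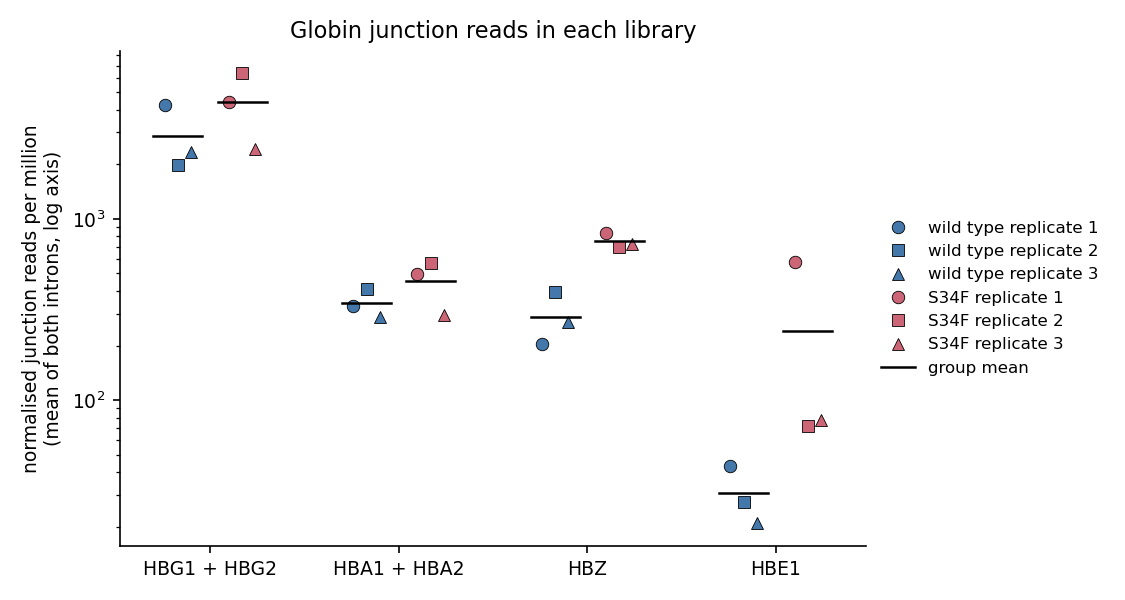
Level of each globin gene or gene pair (RPM, TMM-normalised, log axis) in the 3 wild-type and 3 S34F libraries, with replicates 1, 2 and 3 as circle, square and triangle and the group mean as a bar. All S34F points lie above all wild-type points for HBZ and HBE1, while the groups overlap for gamma and alpha globin.

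HBZ encodes the embryonic alpha-like zeta chain. Its level in wild-type replicates 1, 2 and 3 was 203, 394 and 271 RPM, and in S34F replicates 1, 2 and 3 it was 839, 698 and 731. The groups did not overlap, and the S34F mean was 2.61 times the wild-type mean. Both annotated HBZ introns passed the test. Intron 1 (chr16:203004-203890 in hg19, plus strand, 887 nt) had a log2 fold change of 1.40 (SE 0.244, edgeR quasi-likelihood test, Benjamini-Hochberg adjusted p = 0.0465). Intron 2 (chr16:204096-204270, 175 nt) had a log2 fold change of 1.37 (SE 0.239, edgeR adjusted p = 0.0465).

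These were the only 2 of the 15 annotated globin junctions that passed, both higher in S34F. Of all 126467 junctions tested, 0.223% passed in either direction, 0.0996% as higher and 0.123% as lower in S34F. The HBZ call was close to the threshold of 0.05. The direction held without each library in turn, with log2 fold changes of 1.18 to 1.67 for intron 1 in edgeR. The adjusted p of intron 1 became 0.0748 without wild-type replicate 1, 0.122 without wild-type replicate 2, 0.194 without wild-type replicate 3, 0.125 without S34F replicate 1 and 0.132 without S34F replicate 3, and the call was kept only without S34F replicate 2 (0.0467).

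HBZ shares reads with its pseudogene HBZP1. Multi-mapped reads made up 81.3% to 84.0% of the reads of HBZ intron 1 and 52.1% to 54.3% of those of intron 2. Counting only unique reads, intron 2 stood at 74.3, 139 and 93.4 unique RPM in wild-type replicates 1, 2 and 3 and at 304, 232 and 243 in the S34F replicates. The groups thus stayed apart on reads that could be placed at HBZ alone. Both tested HBZP1 junctions also passed as higher in S34F (edgeR adjusted p 0.0417 and 0.0465), and most of those reads are listed at HBZ too.

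HBE1 encodes the embryonic beta-like epsilon chain. Its level was 43.5, 27.6 and 21.0 RPM in wild-type replicates 1, 2 and 3, and 576, 72.3 and 78.1 in S34F replicates 1, 2 and 3. All S34F libraries lay above all wild-type libraries, but S34F replicate 1 was 7.97 times S34F replicate 2. The ratio of the group means was 7.89 with all libraries and 2.45 without S34F replicate 1. Almost every HBE1 read mapped uniquely, with at most 5.26% multi-mapped in either intron.

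Neither HBE1 intron passed the test. Intron 2 (chr11:5289828-5290683, minus strand, 856 nt) had a log2 fold change of 2.98 (SE 1.05, edgeR adjusted p = 0.337), and intron 1 (chr11:5290907-5291028, 122 nt) one of 2.98 (SE 1.08, edgeR adjusted p = 0.350). Without S34F replicate 1 the log2 fold changes were 1.34 and 1.25, and neither passed (edgeR adjusted p 0.134 and 0.146). HBE1 and HBZ together gave the 4 annotated globin junctions, of 15, whose S34F libraries all lay above the wild-type ones. Over all junctions tested, 9.59% had that order. The reverse order was found in 0 of the 15 globin junctions and in 9.65% of all junctions.

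HBG2 and HBG1 encode the fetal gamma chains. The gamma globin level was 4239, 1987 and 2339.6 RPM in wild-type replicates 1, 2 and 3 and 4404, 6355 and 2429 in S34F replicates 1, 2 and 3. The groups overlapped: wild-type replicate 1 lay beside S34F replicate 1, and S34F replicate 3 lay beside wild-type replicate 3. The ratio of means was 1.54. All 5 annotated gamma junctions had positive log2 fold changes, from 0.56 to 0.67 with edgeR adjusted p between 0.464 and 0.572, and 0 passed.

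The 2 gamma copies could be told apart only on their unique reads. Multi-mapped reads made up 88.2% to 89.5% of gamma intron 1 reads and 77.9% to 79.1% of intron 2 reads. On the unique reads of both introns, HBG1 was 25.7%, 28.1% and 27.8% of gamma globin in wild-type replicates 1, 2 and 3, and 28.1%, 29.2% and 29.2% in S34F replicates 1, 2 and 3. The groups just failed to overlap, with a difference of 1.64 percentage points (two-sided exact permutation p = 0.1, the smallest that 3 against 3 allows, and 0.275 adjusted over the 11 shares and ratios compared). The HBG1 share was 1.58% to 5.17% at intron 1 and 37.0% to 39.1% at intron 2, so the unique reads of the 2 introns do not give the same balance of the copies. At each intron taken alone the groups overlapped, with a difference of 1.68 percentage points at intron 1 and 0.882 at intron 2.

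HBA2 and HBA1 encode the identical alpha chains used from the fetus onward. The alpha globin level was 332, 411 and 287 RPM in wild-type replicates 1, 2 and 3 and 493, 571 and 296 in S34F replicates 1, 2 and 3. S34F replicates 1 and 2 lay above all wild-type libraries, and S34F replicate 3 lay among them. The ratio of means was 1.32. All 6 annotated alpha junctions had positive log2 fold changes, from 0.38 to 0.47 with edgeR adjusted p between 0.408 and 0.533, and 0 passed.

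Alpha reads were nearly all shared between the copies, with 98.9% to 99.5% multi-mapped at intron 1 and 96.3% to 97.8% at intron 2. On the few unique reads, HBA1 was 8.56%, 17.8% and 20.8% of alpha globin in wild-type replicates 1, 2 and 3 and 16.1%, 26.8% and 28.1% in S34F replicates 1, 2 and 3. These groups overlapped (difference 7.95 percentage points, two-sided exact permutation p = 0.3, adjusted p = 0.55).

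All 15 annotated globin junctions had a log2 fold change above 0, with a median of 0.58 against 0.01 over all junctions tested. Of all junctions tested, 51.1% had a value above 0. On unique reads alone the value of HBA2 intron 2 was -0.20. The junctions of a gene pair share reads and those of a gene share transcripts, so these are not separate measurements. In counts simulated from these libraries, a true log2 difference of 1 was called for 17.0% of changed junctions and a difference of 2 for 78.1%. The changed junctions were drawn at random from all those tested, so these rates are averages and were not measured for the globin junctions. The gamma and alpha log2 fold changes lay below the smaller of these 2 differences.

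**Figure D2:**
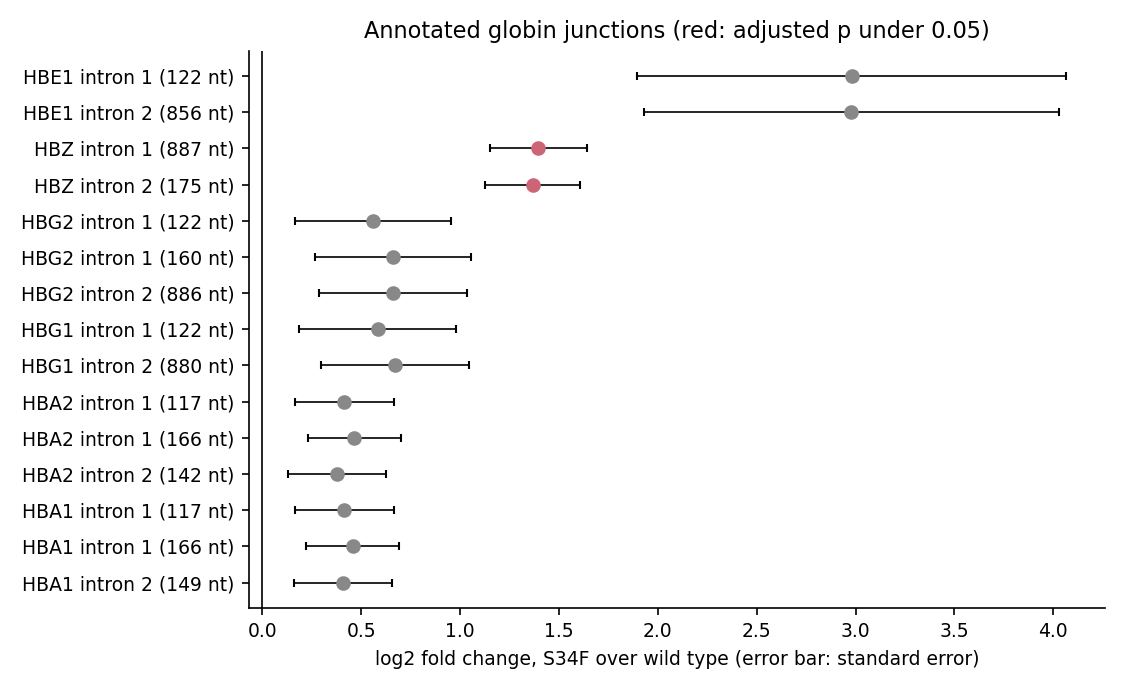
Log2 fold change, S34F over wild type, of the 15 annotated globin junctions (edgeR, bars show ±1 SE), with junctions that passed an adjusted p of 0.05 marked. All values are positive, the 2 HBZ introns passed, and the HBE1 introns have the largest values and the widest bars.

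The balance of embryonic against later chains was compared within each library, which removes library size. HBZ made up 37.97%, 48.9% and 48.6% of HBZ plus alpha globin in wild-type replicates 1, 2 and 3, and 63.0%, 55.0% and 71.2% in S34F replicates 1, 2 and 3. On this mean of both introns HBZ was the smaller part in each wild-type library and the larger in each S34F library. At intron 1 alone it was 42.1%, 53.5% and 53.2% in wild-type replicates 1, 2 and 3, and at intron 2 alone 49.3% in S34F replicate 2, while the groups stayed apart at each intron. The means were 45.2% ± 6.22 and 63.1% ± 8.13 (SD, n = 3 each) and differed by 17.9 percentage points (two-sided exact permutation p = 0.1, the smallest possible, adjusted p = 0.275). On unique reads alone HBZ was 81.3% to 87.4% in the wild-type and 92.0% to 94.98% in the S34F libraries, a difference of 8.74 percentage points in the same direction. The level of this share depends on how shared reads are counted, since alpha globin has few unique reads and HBZ shares reads with HBZP1.

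HBE1 made up 1.02%, 1.37% and 0.889% of HBE1 plus gamma globin in wild-type replicates 1, 2 and 3, and 11.6%, 1.12% and 3.12% in S34F replicates 1, 2 and 3. S34F replicate 2, with the highest gamma globin level, lay among the wild-type libraries. The difference of means was 4.18 percentage points (two-sided exact permutation p = 0.2, adjusted p = 0.44), and without S34F replicate 1 it was 1.03. The alpha-like genes together made up 19.6% ± 8.72 of all globin reads in wild-type and 22.2% ± 6.36 in S34F libraries (SD, n = 3 each), with overlapping groups (two-sided exact permutation p = 0.7, adjusted p = 0.77).

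**Figure D3:**
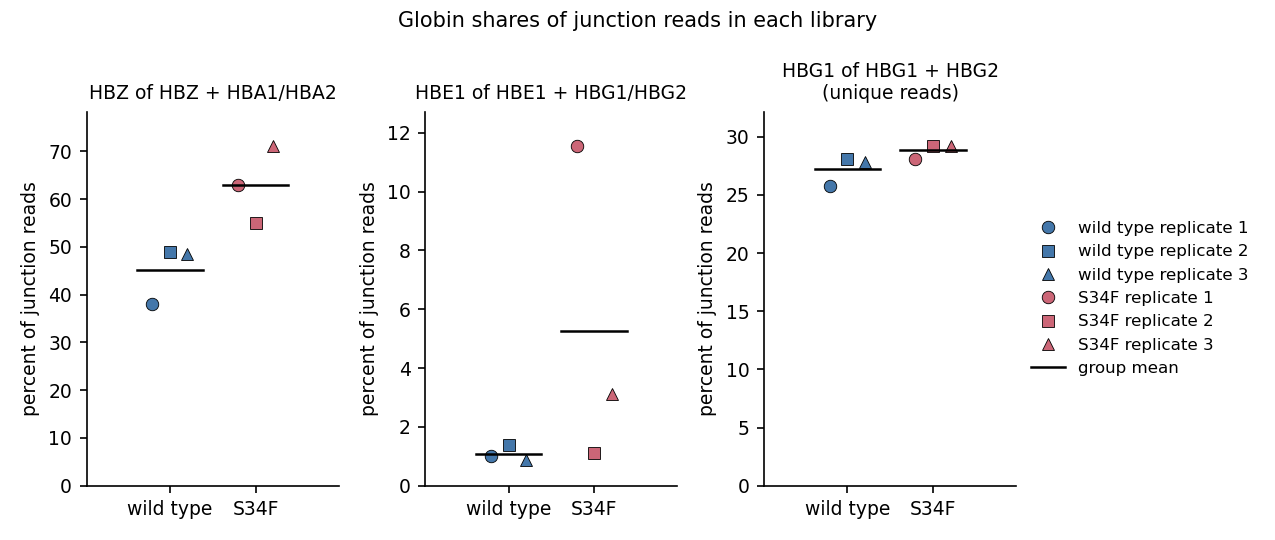
Shares of globin junction reads in percent for each library, with replicates 1, 2 and 3 as circle, square and triangle and group means as bars. The HBZ share of HBZ plus alpha globin separates the groups, the HBE1 share of HBE1 plus gamma globin lies above the wild-type range in S34F replicates 1 and 3, and the HBG1 share of unique gamma reads nearly meets between groups.

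The reads of the second intron relative to the first differed little between groups. In HBG2 the ratio was 1.11, 1.16 and 1.17 in wild-type replicates 1, 2 and 3 and 1.18, 1.22 and 1.26 in S34F replicates 1, 2 and 3. In HBG1 it was 1.29, 1.35 and 1.34 against 1.40, 1.38 and 1.45. Both gamma genes thus had higher ratios in all S34F libraries, by 0.0769 and 0.0847 (two-sided exact permutation p = 0.1 each, the smallest possible, adjusted p = 0.275), and most of their reads are the same reads listed at both copies. The HBZ ratio was 0.599 ± 0.033 in wild-type and 0.584 ± 0.022 in S34F libraries, and the HBE1 ratio 0.894 ± 0.062 and 0.927 ± 0.050 (SD, n = 3 each). The groups overlapped for HBZ, HBE1, HBA2 and HBA1 (two-sided exact permutation p between 0.6 and 1).

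Since U2AF1 acts at 3′ splice sites, the choice of splice site inside the globin genes was tested next. For each junction, its reads were set against those of all other junctions sharing its 5′ splice site (acceptor choice) or its 3′ splice site (donor choice). Called events needed an edgeR adjusted p under 0.05 and a difference of at least 10 percentage points. Of 17 globin acceptor events 0 were called, against 1.71% of 61132 events in all, and of 14 globin donor events 0 were called, against 0.662% of 60698. In the globin acceptor events the annotated junction held at least 94.0% of the reads in every library. That leaves little room for a difference of 10 percentage points, so the acceptor count of 0 tells little. At an unadjusted edgeR p under 0.05 the globin counts were 9 and 0, beside 11016 acceptor and 8971 donor events in all. The 9 include reads listed at both HBA1 and HBA2 and both sides of the same choice. Some of the 9 reached the minimum of 10 reads on a side only through the S34F libraries. DESeq2 on the same counts gave 0 globin events at an adjusted p under 0.05 in both classes, against 0.486% of all acceptor and 0.186% of all donor events.

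HBE1 had the largest share of unannotated splicing among the 6 genes, 0.557% of its 44694 junction reads. The gamma genes had 0.00307% (HBG1) and 0.00274% (HBG2), HBZ had 0.0391%, HBA2 0.0466% and HBA1 0.0477%. The leading HBE1 site is an unannotated acceptor in exon 2 (chr11:5290879-5291028, minus strand), 28 nt downstream of the annotated acceptor, a distance that is not a multiple of 3. It had 2, 2 and 2 reads in wild-type replicates 1, 2 and 3 and 78, 12 and 39 in S34F replicates 1, 2 and 3.

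As a share of the reads leaving the same donor, this acceptor took 0.165% (95% exact binomial interval 0.0200 to 0.596), 0.240% (0.0291 to 0.866) and 0.446% (0.0541 to 1.60) in wild-type replicates 1, 2 and 3. In S34F replicates 1, 2 and 3 it took 0.485% (0.383 to 0.605), 0.901% (0.466 to 1.57) and 1.04% (0.742 to 1.42). The groups did not overlap, but wild-type replicate 3 and S34F replicate 1 lay within each other's counting error. Intervals here cover counting error only, since reads are not independent molecules. The log2 odds difference was 1.49 (SE 0.595, edgeR adjusted p = 0.176) and did not pass. As a plain level, the junction had a log2 fold change of 4.15 (SE 0.717, edgeR adjusted p = 0.0512) and missed the threshold of 0.05, beside 2.98 for the annotated intron 1 on the same scale. It passed in 5 of 13 alternative settings: on unique reads (0.0476), with library totals only (0.0372), with no low-count filter (1.388e-08), with DESeq2 (2.419e-04) and without S34F replicate 2 (0.0243). Without S34F replicate 1 the adjusted p was 0.0995. This junction reached the minimum of 10 reads in 3 libraries only through the S34F group, where it is high. Its odds test likewise reached 10 reads only with those of the S34F libraries. The filtered tests therefore give no separate support for a difference.

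A neighbouring unannotated HBE1 acceptor lies 30 nt downstream of the annotated one (chr11:5290877-5291028). It had 0 reads in each wild-type library and 17, 1 and 9 reads in S34F replicates 1, 2 and 3. The wild-type libraries had 448 to 1209 reads at this donor, which allows a share of up to 0.248% to 0.670%, and the S34F shares were 0.106%, 0.0751% and 0.241%. Shares of this size could therefore go unseen in a single wild-type library. The log2 odds difference was 3.30 (SE 1.38, edgeR adjusted p = 0.207) and did not pass. This acceptor met the minimum of 10 reads for the test through the S34F libraries alone. A further unannotated junction, inside the last exon of HBE1 (chr11:5289687-5289820) had 21 reads in all, none with an overhang above 7 nt.

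HBA2 and HBA1 have an annotated donor 49 nt upstream of the main one in exon 1. Its junctions (chr16:222958-223123 in HBA2 and chr16:226762-226927 in HBA1, plus strand, 166 nt) took 9.67% ± 0.57 of HBA2 and 8.72% to 11.6% of HBA1 intron 1 reads. For HBA2 the wild-type mean of 9.67% stood against 10.2% ± 1.49 in S34F libraries (SD, n = 3 each, edgeR adjusted p = 0.913). HBG2 likewise has an annotated donor 38 nt upstream of the main one (chr11:5275745-5275904, 160 nt). It took 1.64% ± 0.074 of the reads at this acceptor in wild-type and 1.79% ± 0.174 in S34F libraries (SD, n = 3 each, edgeR adjusted p = 0.828). Multi-mapped reads made up 86.9% to 93.6% of its reads, so the level of this share depends on how they are counted. On unique reads alone the difference was 0.275 percentage points (edgeR adjusted p = 0.533).

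From the upstream alpha donor, an unannotated acceptor 70 nt downstream of the annotated one was also used (chr16:222958-223193 in HBA2 and chr16:226762-226997 in HBA1). All of its reads were multi-mapped and listed at both copies, so the 56 reads at each are the same reads. They numbered 2, 1 and 1 in wild-type replicates 1, 2 and 3 and 36, 12 and 4 in S34F replicates 1, 2 and 3. At HBA2 this was 0.220%, 0.0858% and 0.178% of reads leaving that donor in the wild-type libraries and 3.00%, 1.01% and 0.244% in the S34F libraries. The order was complete but narrow, as S34F replicate 3 nearly met wild-type replicate 1. The log2 odds difference was 2.93 (SE 0.878, edgeR adjusted p = 0.0673). This acceptor met the minimum of 10 reads for the test only with those of the S34F libraries, where it is high.

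The annotated HBA2 acceptor used from this donor had a log2 odds difference of -2.94 (SE 0.798, edgeR adjusted p = 0.0455) and a change of -2.54 percentage points, more than the 1.26 gained by the unannotated one. The shared reads are listed a second time here, as junctions from HBA2 into HBA1. At HBA1 the same choice gave -2.997 (SE 0.876, edgeR adjusted p = 0.0610) and a change of -1.31 percentage points. At both copies the competing side reached the minimum of 10 reads only with those of the S34F libraries. The HBA2 event was the only globin event under 0.05, against 3.57% of all acceptor events with no minimum difference, and it fell short of the 10-point minimum.

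A single library carried most of the size of this HBA2 change. Without S34F replicate 1 it was -0.975 percentage points, with a log2 odds difference of -1.90 (edgeR adjusted p = 0.203). The adjusted p was 0.0876, 0.194 and 0.103 without wild-type replicates 1, 2 and 3 and 0.143 without S34F replicate 2. Without S34F replicate 3 it was 0.0321, and with a minimum of 1 read on the competing side it was 0.00079. In each of these last 2 settings 4 globin acceptor events were under 0.05, the annotated and the unannotated acceptor at both alpha copies, and the HBA2 unannotated acceptor had adjusted p of 0.0471 and 0.0211.

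HBZ had an unannotated donor 256 nt downstream of the annotated one, inside intron 1 (chr16:203260-203890). Its unique reads numbered 0, 0 and 1 in wild-type replicates 1, 2 and 3 and 3, 0 and 0 in S34F replicates 1, 2 and 3. The other reads were multi-mapped and cannot be placed at HBZ alone. The donor was compared on all reads. This donor took 0.0242% ± 0.0080 of the reads at its acceptor in wild-type and 0.0325% ± 0.0012 in S34F libraries (SD, n = 3 each, edgeR adjusted p = 0.855), from 35 reads in all.

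**Figure D4:**
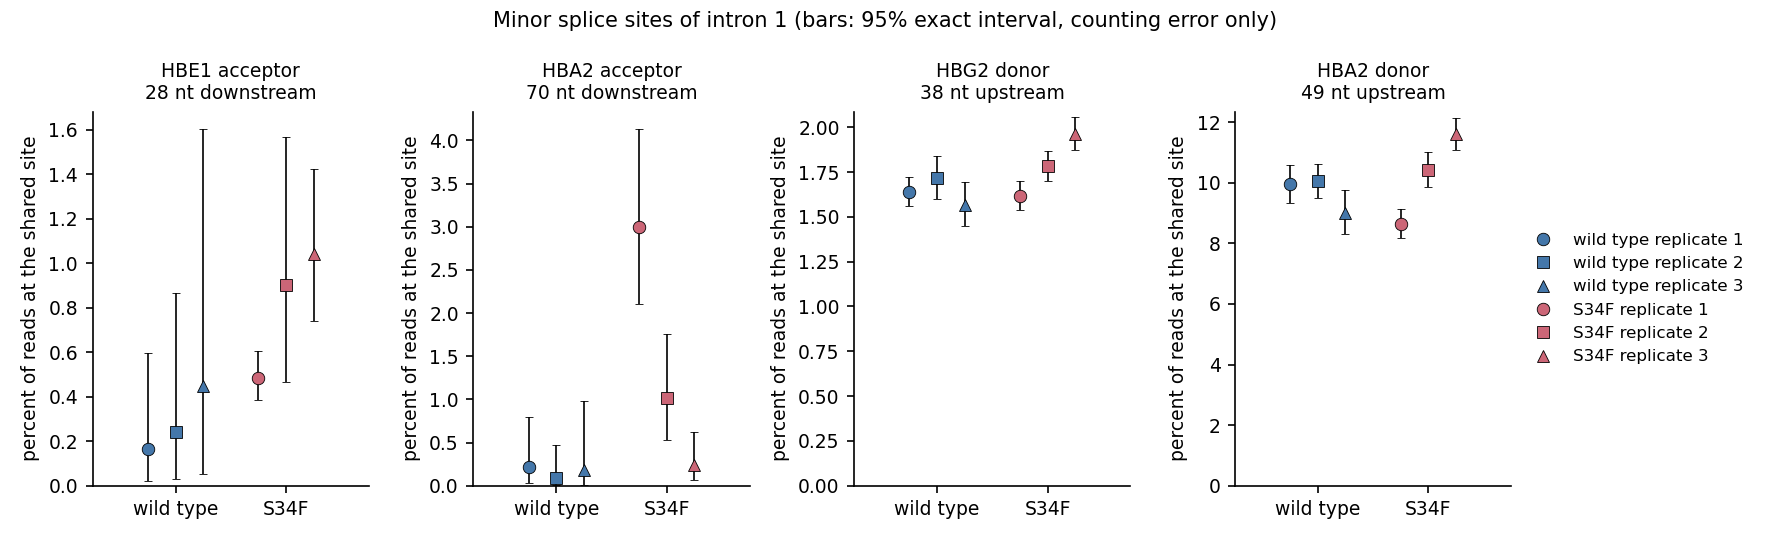
Share of reads at minor splice sites of HBE1, HBG2 and HBA2 in percent for each library, with replicates 1, 2 and 3 as circle, square and triangle and 95% exact binomial intervals as bars. The HBE1 and HBA2 acceptors are higher in the S34F libraries, at shares of at most 3.00%, and the annotated upstream donors overlap between groups.

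**Figure D5:**
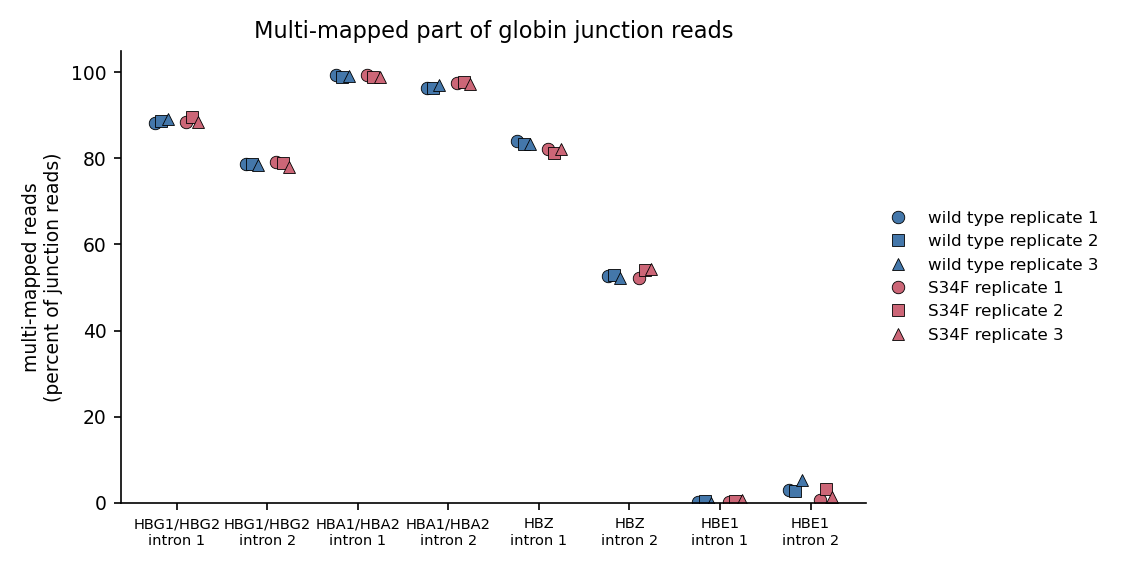
Multi-mapped part of the junction reads of each globin gene or pair and intron in percent for each library. Alpha globin lies above 96% at both introns, gamma globin between 77.9% and 89.5%, HBZ between 52.1% and 84.0%, and HBE1 at or below 5.26%.

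Of the other loci of the 2 clusters, 5 were examined, and all but HBZP1 were low. HBB, the adult beta gene, was not among them. HBZP1, which shares reads with HBZ, stood at 204 ± 68.6 RPM in wild-type and 534 ± 45.1 in S34F libraries (SD, n = 3 each). HBD, the delta chain of a minor adult hemoglobin, stood at 1.68 ± 1.99 RPM in wild-type and 3.96 ± 2.66 in S34F libraries, HBQ1 (theta) at 6.33 ± 0.496 and 4.59 ± 2.03, and the pseudogene HBBP1 at 0.824 ± 0.701 and 2.39 ± 0.465 (SD, n = 3 each). HBM (mu) had no junction with enough reads to test. Of 7 tested junctions in 4 such loci, 2 passed, the HBZP1 junctions that share reads with HBZ. Over all junctions tested, 0.223% passed in either direction.

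A list of 15 erythroid genes gave 147 tested junctions, with a median log2 fold change of 0.11 against 0.01 over all junctions. Of these 1 passed as higher in S34F and 0 as lower, against 0.0996% and 0.123% of all junctions tested. It lies in ALAS2, the erythroid enzyme that starts heme synthesis (chrX:55046938-55051150, log2 fold change 2.31, SE 0.324, edgeR adjusted p = 0.0270). It skips an annotated exon that another junction from the same site includes, which had a log2 fold change of 1.98 (edgeR adjusted p = 0.202). The call was kept without S34F replicate 1 or 2 (0.0449 and 0.0253), and the adjusted p was 0.0504, 0.137 and 0.117 without wild-type replicates 1, 2 and 3 and 0.0523 without S34F replicate 3.

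ALAS2 levels were 11.3, 21.6 and 10.7 RPM in wild-type replicates 1, 2 and 3 and 96.9, 39.4 and 30.8 in S34F replicates 1, 2 and 3. S34F replicate 1 was the highest library for ALAS2, as it was for HBE1 and HBZ. All 16 ALAS2 junctions had positive log2 fold changes, beside 51.1% of all junctions tested. Junctions of a gene share transcripts and are not separate measurements.

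AHSP, which stabilises free alpha chains, had 4.45, 5.69 and 2.83 RPM in wild-type replicates 1, 2 and 3 and 1.35, 4.51 and 1.04 in S34F replicates 1, 2 and 3. S34F replicate 2 lay among the wild-type libraries, and neither tested AHSP junction passed (edgeR adjusted p 0.423 and 0.616). MYB, a transcription factor of early blood progenitors, had log2 fold changes below 0 at all 24 tested junctions (median -0.58). None of these passed, at an edgeR adjusted p of 0.0712 or above. Of all junctions tested, 51.1% had a log2 fold change above 0.

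The pattern of gamma globin over the 6 libraries was compared with that of each listed erythroid gene by the root mean square difference of mean-centred log2 levels. Among the nearest were TFRC, the transferrin receptor (0.51), and GATA1, an erythroid transcription factor (0.53). A gene that varies little also scores low here, as the listed gene LDB1 did (0.57, with 11.1 to 14.0 RPM). These values therefore do not show that a gene follows gamma globin. TFRC levels were 48.1, 34.9 and 35.0 RPM in wild-type replicates 1, 2 and 3 and 36.8, 47.3 and 45.7 in S34F replicates 1, 2 and 3. The groups overlapped for TFRC, and 0 of its 22 tested junctions passed (lowest edgeR adjusted p = 0.455).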

How the data were processed

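Poly(A)+ RNA libraries of K562 cells (3 wild-type U2AF1 knock-in, 3 U2AF1 S34F) were run paired-end on a HiSeq2000, according to the labels' protocols. STAR and hg19 are named in the submitters' processing notes. The STAR version, its settings and the gene annotation are not given in the sources used here. Each deposited table lists raw counts per splice junction, unnormalised: uniquely mapped reads, multi-mapped reads and the largest overhang. Junctions absent from a library's table were set to 0.

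Windows of the 6 globin genes came with the rule, those of HBD, HBM, HBQ1, HBBP1, HBZP1 and the erythroid list from known hg19 positions, checked against RefSeq gene lengths. The members and lists were chosen with earlier results of these data known. Named junctions were all annotated ones of the members, unannotated ones with at least 20 reads, and a few of the lists. The gene nearest to gamma globin was found on log2 of RPM plus 0.1.

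Counts of unique plus multi-mapped reads were fitted with edgeR 4.0.16 (TMM, quasi-likelihood, robust) in R 4.3.3, for junctions with at least 10 reads in at least 3 libraries, with Benjamini-Hochberg adjustment over all junctions tested. Splice-site choice used the same test on a pair of counts per library with an intercept per library, for events that reached 20 reads in each library and 10 on either side. Shares and ratios were compared by two-sided exact permutation tests. Alternatives were unique reads only, other scalings, filters and annotated junctions only, limma 3.58.1 (voom), DESeq2 1.42.0, a replicate block, and leaving out each library. The scripts were tested on simulated data. No sequence of the members is shown, as no table used here held one. Some results of the erythroid list are not reported here.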

Additional observations from a re-analysis of the deposited data

Results flagged for a closer look

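Unannotated junctions joining HBG2 and HBE1 lie outside the gene windows and entered no comparison above. They numbered 38 and had 4, 1 and 2 unique reads in wild-type replicates 1, 2 and 3 and 10, 8 and 6 in S34F replicates 1, 2 and 3. Per 1000 unique gamma globin reads this was 0.0612, 0.0318 and 0.0724 in the wild-type and 0.152, 0.123 and 0.0910 in the S34F libraries. HBE1 reads are not part of this base, so the values are not scaled for the HBE1 level. The lowest S34F library (0.0910) lay above every wild-type library. With 31 reads in all, the counts are small.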

How the results depend on the processing

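Of all junctions, edgeR called 282. The count was 490 with library totals only, 2897 with no low-count filter, 125 with at least 50 reads, 28 with a replicate block, 183 with annotated junctions only, 93 with limma-voom and 1547 with DESeq2. Leaving out 1 library gave 0 to 693: 508, 0 and 3 without wild-type replicates 1, 2 and 3, and 92, 693 and 2 without S34F replicates 1, 2 and 3. At the count of 0, edgeR gave 12958 junctions at an unadjusted p under 0.05. Of the annotated globin junctions, 2 were called: 4 with no filter, 0 with at least 50 reads, 0 with a replicate block, 0 with annotated junctions only, and 0 to 2 leaving out 1 library, kept only without S34F replicate 2. Unadjusted counts over all junctions in those 3 fits were 10499, 14165 and 16596. The added gamma calls without a filter were intron 2 of HBG1 and HBG2 (edgeR adjusted p 0.0394 and 0.0465). The HBZ intron 1 p was 0.0539 with at least 50 reads, 0.113 with the block and 0.0501 with annotated junctions only. The same-numbered libraries did not deviate together (correlations -0.187, -0.153 and -0.0199), so the numbers were not taken as pairs.

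Acceptor events called were 1046: 695 with at least 50 reads, 693 with 1 read on the competing side, 502 with the replicate block, 200 with DESeq2, 2181 with no minimum difference, and 125 to 1759 leaving out 1 library. The globin acceptor count of 0 became 1 with no minimum. With no minimum it was 4 with the replicate block, with 1 read on the competing side or without S34F replicate 3, and the annotated HBA2 acceptor had an adjusted p of 0.0098 with the block. Donor events called were 402: 146 with the block, 75 with DESeq2, 819 with no minimum, and 5 to 954 leaving out 1 library.

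The sign turned for HBA2 intron 2 on unique reads (log2 -0.20), and, on unique reads, for the second-to-first intron ratio of HBG1 (-12.3) and HBA1 (0.0912, beside -0.00025 with all reads), where unique reads are few. Leaving out 1 library, the difference in the alpha-like share ran from -1.62 (without wild-type replicate 1) to 7.09 percentage points. The ratio differences ran from -0.0328 to 6.8e-05 for HBZ, from -0.0028 to 0.0560 for HBE1, from -0.0544 to 0.0088 for HBA2 and from -0.0288 to 0.0264 for HBA1. The 4 other shares, among them HBZ of HBZ plus alpha globin (13.8 to 21.9 percentage points), and the HBG2 ratio kept their direction under each alternative, and the HBG1 ratio did under all but unique reads. The cause of each change was not tested. Depth limits HBE1 in the wild-type libraries, with 448 to 1209 reads at its first donor.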

Other observations

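Between HBG1 and HBG2, 112 unannotated junctions had 1651 unique reads in all and 0 were annotated. Per 1000 unique gamma globin reads they came to 4.88, 5.40 and 6.01 in wild-type replicates 1, 2 and 3 and 5.18, 5.00 and 5.00 in S34F replicates 1, 2 and 3, so the groups overlapped. The most frequent joins the intron 1 donor of HBG2 to a position upstream of the intron 1 donor of HBG1 (chr11:5271008-5275866, minus strand), with 45, 42 and 40 reads in the wild-type and 56, 70 and 72 in the S34F replicates and a largest overhang of 50 nt. The next (chr11:5270607-5274572) had 308 reads, none with an overhang above 9 nt.

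Across the 6 libraries the leading library differed from gene to gene. S34F replicate 1 was highest for HBE1 (576 RPM), HBZ (839) and ALAS2 (96.9), whereas S34F replicate 2 was highest for gamma globin (6355) and alpha globin (571). Among the wild-type libraries, replicate 1 was highest for HBE1 (43.5) and gamma globin (4239) and replicate 2 for HBZ (394), alpha globin (411) and ALAS2 (21.6). These orders are given as values and were not tested.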
